A study of Homo sapiens with 24 samples.

Results

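The genes described here are 40 hypoxia-response and glycolysis genes: the HIF subunits, the genes that HIF is known to switch on, and the enzymes that carry glucose to lactate. They were taken by gene symbol from the 60660 features of the deposited tables, and where several features shared a symbol the one with the highest mean count was used. Members are picked by symbol, but the list was chosen with earlier results of these data known. The differences between libraries given below are therefore a description of these genes. All 40 passed the filter on low counts in every model.

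The study sequenced poly(A) RNA of PC3, an androgen-independent prostate cancer line, and LNCaP, an androgen-responsive one, in 24 libraries that form 8 groups of 3 replicates. Beside the parental cells of each line stands its chronic exposure (CE) derivative, which the labels describe as selected by passaging in rising concentrations of Acetalax (oxyphenisatin acetate) until resistant and then held without drug for 2 weeks. For all 4 kinds of cells there are control libraries, with no acute dose, and libraries of cells given Acetalax at 10 µM for 4 h, so that the CE controls carry the earlier exposure as well. PC3 cells were kept in F-12 medium and LNCaP cells in RPMI-1640, both with 10% serum, so line and medium cannot be told apart. The labels name 1 batch for all libraries and state no oxygen level, cell density or time since the last change of medium. The design text calls the replicates biological, and the labels name no clone or separate selection of a CE derivative.

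HIF is a pair of proteins, an oxygen-labile alpha subunit (HIF-1 alpha or HIF-2 alpha) and the stable partner ARNT. When oxygen is ample, prolyl hydroxylases mark the alpha subunit for destruction by the VHL ubiquitin ligase; when oxygen is short the pair binds hypoxia response elements and raises transcription of glucose transporters, glycolytic enzymes, angiogenic factors and mitophagy receptors. Control of the alpha subunits is thus largely at the protein level, which these RNA libraries do not measure.

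The core letters of the hypoxia response element are ACGTG and, in a wider form, GCGTG. They were searched on both strands of promoter windows from RefSeq (GRCh38.p14, 250 bases before to 50 after each start site), in which the palindrome CACGTG counts on each strand. Of the 40 genes, 34 had a window and 12 had more than 1, which gave 57 windows. A match was present in 43 of these 57 windows (75.4%) against 48.4% of all 35116 windows of the table, and ACGTG alone in 26 of 57 (45.6%) against 21.4%. Stretches of 4 windows are shown because their genes carry the pattern described next: BNIP3, FAM162A, PGK1 and PFKFB4 were low or high together in the same 3 libraries. Capitals mark the matches on either strand.
BNIP3: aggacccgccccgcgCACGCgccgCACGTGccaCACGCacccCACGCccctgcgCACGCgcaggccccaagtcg
FAM162A: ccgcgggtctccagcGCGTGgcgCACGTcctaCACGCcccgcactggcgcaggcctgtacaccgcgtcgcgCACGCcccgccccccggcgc
PGK1: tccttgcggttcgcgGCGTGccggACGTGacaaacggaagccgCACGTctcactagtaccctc
PFKFB4: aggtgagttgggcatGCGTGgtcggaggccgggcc
These stretches lie at chr10:131982008-131982081 (minus strand), chr3:122384075-122384165 (plus), chrX:78104022-78104084 (plus) and chr3:48556950-48556984 (minus). BNIP3 held 6 matches within 74 bases, 85 to 158 bases before its start site, and only 6 of those bases fall in an annotated exon, of BNIP3 itself. The other 3 stretches overlap no annotated exon of GENCODE 29. A match describes letters and is no evidence of binding, and the genes with several windows share sequence context. Matches also lay in windows of TPI1 (2), CA12 (2) and PFKL (1), which stayed below 2-fold within the groups of those libraries. The windows of EGLN3 and P4HA2, which differed over 4-fold within LNCaP parental controls, held 0.

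The label check bears on every comparison with CE cells. Parental libraries expressed the epithelial markers KRT8, KRT18, EPCAM and CDH1, with a summed level of 995 to 1925 TPM, whereas the libraries labelled CE held 6.15 to 26.7 TPM. COL3A1, a fibrillar collagen of mesenchymal cells, was at 417 to 853 TPM in the CE libraries and below 1 TPM in the parental ones. The 5 fibroblast markers, COL3A1 among them, summed to 710 to 891 TPM in the CE libraries and to 7.98 to 52.1 TPM in the parental ones. The 6 melanocyte markers summed to 319 to 391 TPM in PC3 CE, where 5 of the 6 were under 1 TPM in each group, to 16.2 to 22.7 TPM in LNCaP CE and to at most 10.2 TPM in parental libraries. The 4 endothelial markers summed to at most 6.78 TPM in any library. "PC3 CE" and "LNCaP CE" below mean the libraries so labelled, and their differences from parental cells cannot be told apart from a difference in cell identity.

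Totals of expected counts ran from 40160832 to 57728014 per library, and the mitochondrial share of counts from 1.11% to 7.21%. The totals of the 3 libraries described next were 46061174 to 53268294. TPM, a share of all transcripts, corrects for gene length and is the scale of every level below; fold changes are on the log2 scale and come from edgeR's quasi-likelihood test fitted across all genes, with p-values adjusted by Benjamini-Hochberg and a threshold of 0.05.

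In 3 libraries the genes of this set stood far from their own group, and every group mean that includes one of them has to be read with that in mind. LNCaP parental control replicate 2 had the lowest level of its group in 38 of the 39 members with a mean of at least 1 TPM, with a median deviation of -1.71 on the log2(TPM + 1) scale from its group's median library. LNCaP parental Acetalax replicate 3 was lowest in 36 of 37 members, with a median deviation of -1.68. PC3 CE Acetalax replicate 1 was highest in 35 of 38, with a median deviation of 1.78. Over all genes the same 3 medians were 0, -0.03 and 0, but such a median lay near 0 in every library. The quartiles over all genes were -0.31 and 0.17, -0.37 and 0.14, and -0.32 and 0.32, so other genes departed as well. In the groups of these 3 libraries 11.6%, 12.7% and 16.5% of all genes differed at least 2-fold on TPM + 1. In the other groups 1.78% to 3.12% did. The 2 low libraries belong to opposite treatment arms, and the high one has the same treatment and label as its 2 neighbours. What set these libraries apart was not tested. In bulk RNA, fewer cells with a transcript and less of it per cell cannot be told apart.

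**Figure D1:**
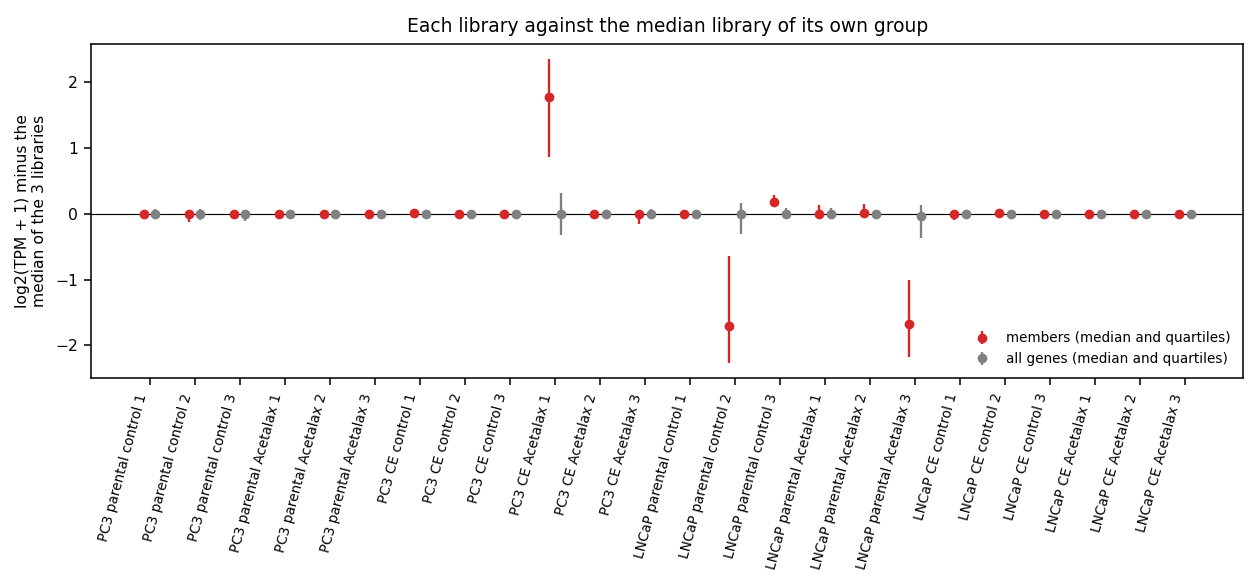
Median and quartiles of log2(TPM + 1) minus the median of the 3 libraries of the same group, for the members (red) and all genes (grey) with a group mean of at least 1 TPM, 1 pair of points per library. LNCaP parental control 2 and LNCaP parental Acetalax 3 lie near -1.7 and PC3 CE Acetalax 1 near 1.78. The medians of all genes lie near 0 in every library, and their quartiles are widest in these 3.

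The ratio of highest to lowest library on TPM + 1 was at least 4-fold for 17 of 39 members in LNCaP parental controls, where 2.41% of all genes were as variable, for 17 of 37 in LNCaP parental Acetalax (all genes 2.27%) and for 15 of 38 in PC3 CE Acetalax (3.12%). It reached 4-fold for 0 members in PC3 parental control (1.54% of all genes), PC3 parental Acetalax (1.54%), PC3 CE control (1.31%) and LNCaP CE control (1.22%), and for 1, NDRG1, in LNCaP CE Acetalax (0.984%). In both LNCaP parental groups 16 of the 17 variable members were the same genes (94.1% of each list). A set of 9 members was past 4-fold in all 3 of these groups: VEGFA, NDRG1, BNIP3, BNIP3L, PFKFB4, ENO2, HK2, ANKRD37 and STC1. The HIF subunit genes HIF1A and ARNT, the carbonic anhydrase gene CA12 and the glycolytic enzyme genes HK1, PFKL, PGAM1 and TPI1 stayed below 2-fold in all 3.

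Genes outside the set moved in the same libraries. Of the other known hypoxia targets, such as DDIT4, ERO1A and SLC16A3, 20 of 21 were lowest in LNCaP parental control replicate 2, 21 of 22 were lowest in LNCaP parental Acetalax replicate 3 and 23 of 24 were highest in PC3 CE Acetalax replicate 1. The share of all genes lowest or highest in these libraries was not counted, either here or for the members. Of 9 integrated stress response genes (ATF4 and its targets, induced by amino acid shortage and unfolded protein), 7, 5 and 9 differed at least 2-fold within these groups, when 11.6%, 12.7% and 16.5% of all genes did. DDIT3, which encodes the stress factor CHOP, stood at 264, 26.4 and 341 TPM in LNCaP parental controls, 274, 231 and 51.4 TPM in LNCaP parental Acetalax and 936, 43 and 22.7 TPM in PC3 CE Acetalax. Among the other glycolysis and lactate genes, 2 of 12, 2 of 12 and 1 of 11 differed 2-fold, near those shares of all genes. The part that stress, depth, culture or any other factor plays in these 3 libraries was not tested.

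**Figure D2:**
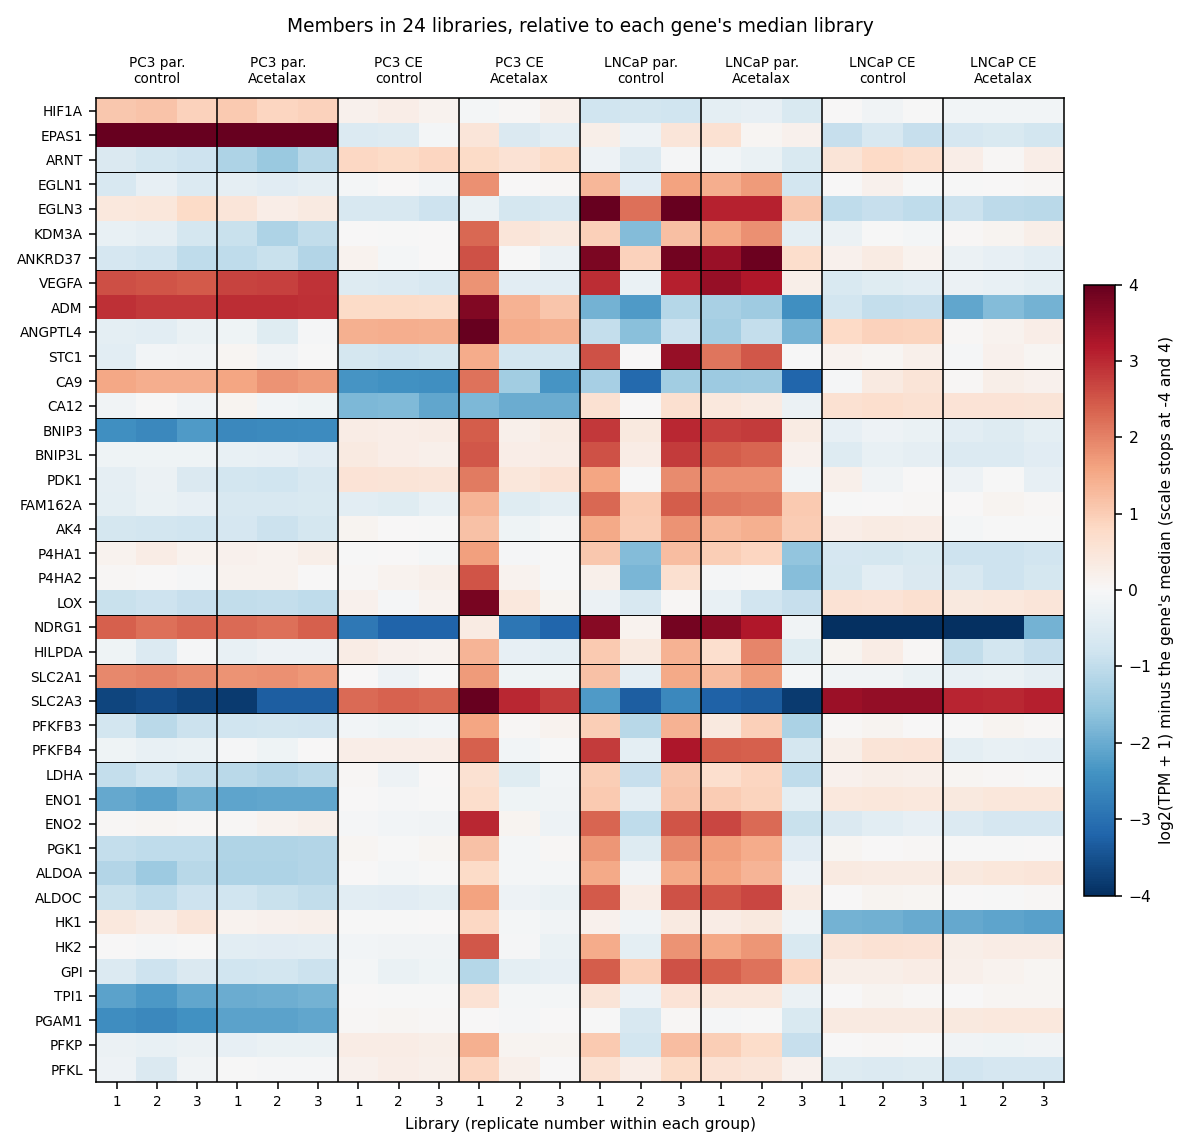
Levels of the 40 members (rows, grouped by role from the HIF subunits at the top to glycolytic enzymes at the bottom) in 24 libraries (columns, 3 per group), as log2(TPM + 1) minus the gene's median over the 24. The columns of LNCaP parental control 2 and LNCaP parental Acetalax 3 are less red or more blue than their neighbours in most rows, and the PC3 CE Acetalax 1 column is red in most rows below the 3 HIF subunits.

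The HIF subunits differed between kinds of cells, and HIF1A and ARNT differed by less than 2-fold within each of the 3 groups that hold a library apart. HIF1A, encoding HIF-1 alpha, stood at 211, 221 and 188 TPM in controls and 205, 179 and 188 TPM after Acetalax in PC3 parental cells and at 111, 119 and 109 TPM in controls and 94.8, 102 and 115 TPM after Acetalax in PC3 CE. LNCaP parental HIF1A was 56.7, 58.8 and 56.7 TPM in controls and 75.5, 78.4 and 65.3 TPM after Acetalax, and LNCaP CE held 100.0, 90.2 and 98.1 TPM in controls and 92, 92.7 and 92.2 TPM after Acetalax. All 3 LNCaP parental Acetalax libraries, replicate 3 included, lay above all 3 controls, and PC3 parental cells had the highest level of the 4 kinds of cells.

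EPAS1, encoding HIF-2 alpha, was essentially a PC3 parental transcript, at 85.2, 76.2 and 81.2 TPM in controls and 90.7, 88.4 and 109 TPM after Acetalax. PC3 CE EPAS1 was 0.32, 0.34 and 0.81 TPM in controls and 1.66, 0.3 and 0.43 TPM after Acetalax. LNCaP parental EPAS1 was 1.27, 0.67 and 1.69 TPM in controls and 1.96, 1.04 and 1.17 TPM after Acetalax, and its range in LNCaP CE was 0.01 to 0.26 TPM. No library outside PC3 parental exceeded 1.96 TPM. ARNT, the shared partner, was at 20.8, 18.5 and 17.4 TPM in controls and 12.8, 10.7 and 14.3 TPM after Acetalax in PC3 parental and 57.2, 55 and 58.9 TPM in controls and 54.2, 48 and 54.9 TPM after Acetalax in PC3 CE. LNCaP parental ARNT measured 27.4, 21.3 and 30.9 TPM in controls and 29.3, 26.1 and 20.4 TPM after Acetalax, and LNCaP CE 45.3, 56.1 and 51.4 TPM in controls and 38, 32.6 and 38.7 TPM after Acetalax. Every CE library thus held more ARNT than every parental library of either line.

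Oxygen sensing and chromatin genes were high in LNCaP parental cells apart from the 2 low libraries. EGLN3 encodes the hypoxia-inducible prolyl hydroxylase PHD3 that feeds back on HIF. LNCaP parental EGLN3 was 44.7, 9.26 and 48.3 TPM in controls and 17.5, 17.6 and 3.64 TPM after Acetalax, and the groups overlapped through the low control. PC3 parental EGLN3 was 1.97, 2.05 and 2.78 TPM in controls and 2.08, 1.66 and 1.86 TPM after Acetalax, and its range over both CE lines was 0.05 to 0.84 TPM. EGLN1, encoding PHD2, the main oxygen sensor, ranged over 21.1 to 26.5 TPM in PC3 parental and 33 to 37.5 TPM in LNCaP CE, and PC3 CE Acetalax held 121, 33.3 and 34 TPM.

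KDM3A, a histone H3 lysine demethylase induced by HIF, stood at 24.6, 23.4 and 18.4 TPM in controls and 15.7, 12.3 and 14.9 TPM after Acetalax in PC3 parental cells. PC3 CE KDM3A was 30.5, 29.9 and 30.7 TPM in controls and 154, 42.9 and 39.9 TPM after Acetalax, and LNCaP CE 25.5, 30.2 and 28.9 TPM in controls and 31.5, 33 and 36.1 TPM after Acetalax. LNCaP parental KDM3A was 59.2, 8.32 and 71 TPM in controls and 90, 111 and 23.1 TPM after Acetalax. Treated libraries lay below the controls in PC3 parental cells and above them in PC3 CE and LNCaP CE cells, with no overlap in these 3 kinds of cells. ANKRD37, a small ankyrin repeat protein gene and known HIF target, stood at 134, 17.7 and 144 TPM in controls and 107, 148 and 15.1 TPM after Acetalax in LNCaP parental cells and 10, 8.53 and 9.02 TPM in controls and 57.6, 8.89 and 7.47 TPM after Acetalax in PC3 CE. Its levels were 5.24, 4.81 and 3.92 TPM in controls and 3.97, 4.36 and 3.42 TPM after Acetalax in PC3 parental and 10.2, 11.6 and 9.94 TPM in controls and 7.5, 6.93 and 6.49 TPM after Acetalax in LNCaP CE, where each treated library was below each control.

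The secreted factors showed different orders across the cells. VEGFA, the main angiogenic growth factor (chr6:43770184-43786487, plus strand, GRCh38), stood at 392, 378 and 363 TPM in controls and 427, 444 and 495 TPM after Acetalax in PC3 parental cells. LNCaP parental VEGFA was 513, 53.9 and 573 TPM in controls and 746, 606 and 76.2 TPM after Acetalax, with the low library of each arm far nearer the CE levels than its own group. PC3 CE VEGFA was 45.1, 44.7 and 41.7 TPM in controls and 228, 48.5 and 48.4 TPM after Acetalax, and LNCaP CE 42.6, 46.5 and 48.2 TPM in controls and 55.9, 53 and 49.1 TPM after Acetalax. Treated libraries were above every control in PC3 parental, PC3 CE and LNCaP CE cells, by small margins save for PC3 CE replicate 1.

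ADM, encoding the vasodilator peptide adrenomedullin, was at 55.3, 52.5 and 52.1 TPM in controls and 56.6, 56.4 and 55.7 TPM after Acetalax in PC3 parental and 11.7, 11.8 and 11.4 TPM in controls and 96.9, 18.7 and 14.9 TPM after Acetalax in PC3 CE. LNCaP parental ADM was only 1.03, 0.56 and 2.35 TPM in controls and 2.02, 1.81 and 0.36 TPM after Acetalax, and LNCaP CE 3.49, 2.88 and 2.91 TPM in controls and 0.78, 1.23 and 1 TPM after Acetalax. Acetalax-treated libraries lay above the controls in PC3 CE and below them in LNCaP CE, without overlap. ANGPTL4, an inhibitor of lipoprotein lipase, was at 1.94, 1.9 and 2.23 TPM in controls and 2.42, 1.76 and 2.71 TPM after Acetalax in PC3 parental and 9.41, 9.6 and 9.29 TPM in controls and 62.1, 9.69 and 9.25 TPM after Acetalax in PC3 CE. LNCaP parental ANGPTL4 was 0.98, 0.21 and 1.18 TPM in controls and 0.5, 1 and 0.06 TPM after Acetalax, and LNCaP CE 5.7, 6.3 and 6.19 TPM in controls and 2.99, 3.25 and 3.59 TPM after Acetalax. STC1, the secreted glycoprotein stanniocalcin, was at 13.2, 1.43 and 26.2 TPM in controls and 9.68, 12.5 and 1.41 TPM after Acetalax in LNCaP parental cells and at 0.48, 0.43 and 0.49 TPM in controls and 5.74, 0.45 and 0.47 TPM after Acetalax in PC3 CE. It ranged over 0.79 to 1.54 TPM in PC3 parental and 1.34 to 1.76 TPM in LNCaP CE libraries.

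The carbonic anhydrases, membrane enzymes that handle the acid of glycolysis outside the cell, parted from each other. CA9, among the most hypoxia-responsive genes known, was at 25.3, 23.9 and 23.5 TPM in controls and 25.9, 30.2 and 28.5 TPM after Acetalax in PC3 parental and 0.74, 0.7 and 0.64 TPM in controls and 39.5, 2.47 and 0.75 TPM after Acetalax in PC3 CE. LNCaP parental CA9 was 2.58, 0.05 and 2.44 TPM in controls and 2.28, 2.35 and 0 TPM after Acetalax, and LNCaP CE 7.67, 10.5 and 11.8 TPM in controls and 8.38, 9.7 and 9.05 TPM after Acetalax. PC3 CE Acetalax replicate 1 thus exceeded even the PC3 parental libraries, and the 2 low LNCaP libraries were the only ones at 0.05 TPM or less. CA12 differed less, by up to 1.57-fold on TPM + 1 within these groups, and was lowest in both low LNCaP libraries. It was at 12.3, 13.4 and 12.3 TPM in controls and 14.8, 12.6 and 12 TPM after Acetalax in PC3 parental and 3.21, 3.3 and 2.43 TPM in controls and 3.18, 2.65 and 2.67 TPM after Acetalax in PC3 CE. LNCaP parental CA12 was 21, 13.7 and 21.5 TPM in controls and 18.4, 17.4 and 11.3 TPM after Acetalax, and LNCaP CE 21.3, 22.3 and 21.4 TPM in controls and 20.5, 20.4 and 19.9 TPM after Acetalax.

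All 5 mitochondrial members were lowest of their group in both low LNCaP libraries and highest in PC3 CE Acetalax replicate 1. BNIP3 encodes a mitophagy receptor of the outer mitochondrial membrane, and its promoter is printed above. LNCaP parental BNIP3 was 849.8, 155 and 969 TPM in controls and 795, 829 and 149 TPM after Acetalax. PC3 parental BNIP3 was 21.1, 19.1 and 23.9 TPM in controls and 19.2, 19.3 and 19.8 TPM after Acetalax, and PC3 CE 147, 144 and 148 TPM in controls and 647, 137 and 149 TPM after Acetalax. LNCaP CE BNIP3 was 95.4, 103 and 98.1 TPM in controls and 88.2, 83.7 and 90.4 TPM after Acetalax. The lowest kind of cell for BNIP3 was therefore PC3 parental, in which VEGFA and NDRG1 were high. Its relative BNIP3L (NIX) was at 349, 71.9 and 411 TPM in controls and 318, 297 and 65.5 TPM after Acetalax in LNCaP parental and 74.9, 70.5 and 67.2 TPM in controls and 333, 70.6 and 72.1 TPM after Acetalax in PC3 CE. BNIP3L ranged over 42.6 to 52.1 TPM in PC3 parental and 39.9 to 47.7 TPM in LNCaP CE.

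PDK1, the kinase that shuts pyruvate out of the citric acid cycle, was at 66.4, 21.2 and 81.8 TPM in controls and 78.4, 79 and 19.7 TPM after Acetalax in LNCaP parental and 31.3, 31.1 and 30.1 TPM in controls and 92.3, 29.3 and 32.2 TPM after Acetalax in PC3 CE. LNCaP CE PDK1 was 24.6, 19.4 and 21.5 TPM in controls and 18.4, 21 and 16.6 TPM after Acetalax, and PC3 parental 16.3, 18 and 14.1 TPM in controls and 12.5, 12 and 13.3 TPM after Acetalax, where all treated libraries were below the controls. FAM162A ranged over 258 to 675 TPM in LNCaP parental, 79.3 to 103 TPM in PC3 parental and 89.5 to 323 TPM in PC3 CE. AK4, a mitochondrial adenylate kinase, ranged over 117 to 201 TPM in LNCaP parental and 31.1 to 35.4 TPM in PC3 parental, and in LNCaP CE its treated libraries (54.2, 57.2 and 56.1 TPM) lay below the controls (68.8, 71.6 and 70.7 TPM).

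NDRG1, a stress-induced growth-arrest gene that androgen also raises in prostate cells, had a wide range, from 0.18 to 681 TPM. LNCaP parental NDRG1 was 603, 52.4 and 681 TPM in controls and 581, 443 and 42.4 TPM after Acetalax. PC3 parental NDRG1 was 252, 220 and 243 TPM in controls and 229.9, 219 and 253 TPM after Acetalax, and PC3 CE 5.58, 4.2 and 4.27 TPM in controls and 60, 5.51 and 4.38 TPM after Acetalax. LNCaP CE NDRG1 was 0.6, 0.63 and 0.32 TPM in controls and 0.18, 0.4 and 12 TPM after Acetalax. LNCaP CE Acetalax replicate 3 was the only LNCaP CE library above 1 TPM, but its counts (8, 31 and 39 in the treated libraries) show no such difference, and no other member differed 2-fold within that group. HILPDA, which coats lipid droplets and blocks their breakdown, was at 27.5, 25.6 and 25 TPM in controls and 59.1, 17.7 and 16.7 TPM after Acetalax in PC3 CE and 24, 28 and 23.2 TPM in controls and 10.9, 13.1 and 11.4 TPM after Acetalax in LNCaP CE. LNCaP parental HILPDA was 47.3, 29.4 and 59.8 TPM in controls and 36.1, 89.5 and 15.6 TPM after Acetalax, and PC3 parental 20, 15.2 and 21.6 TPM in controls and 18.2, 19.4 and 19.4 TPM after Acetalax. Without PC3 CE replicate 1, treated CE libraries of both lines had less HILPDA than any CE control of the same line.

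**Figure D3:**
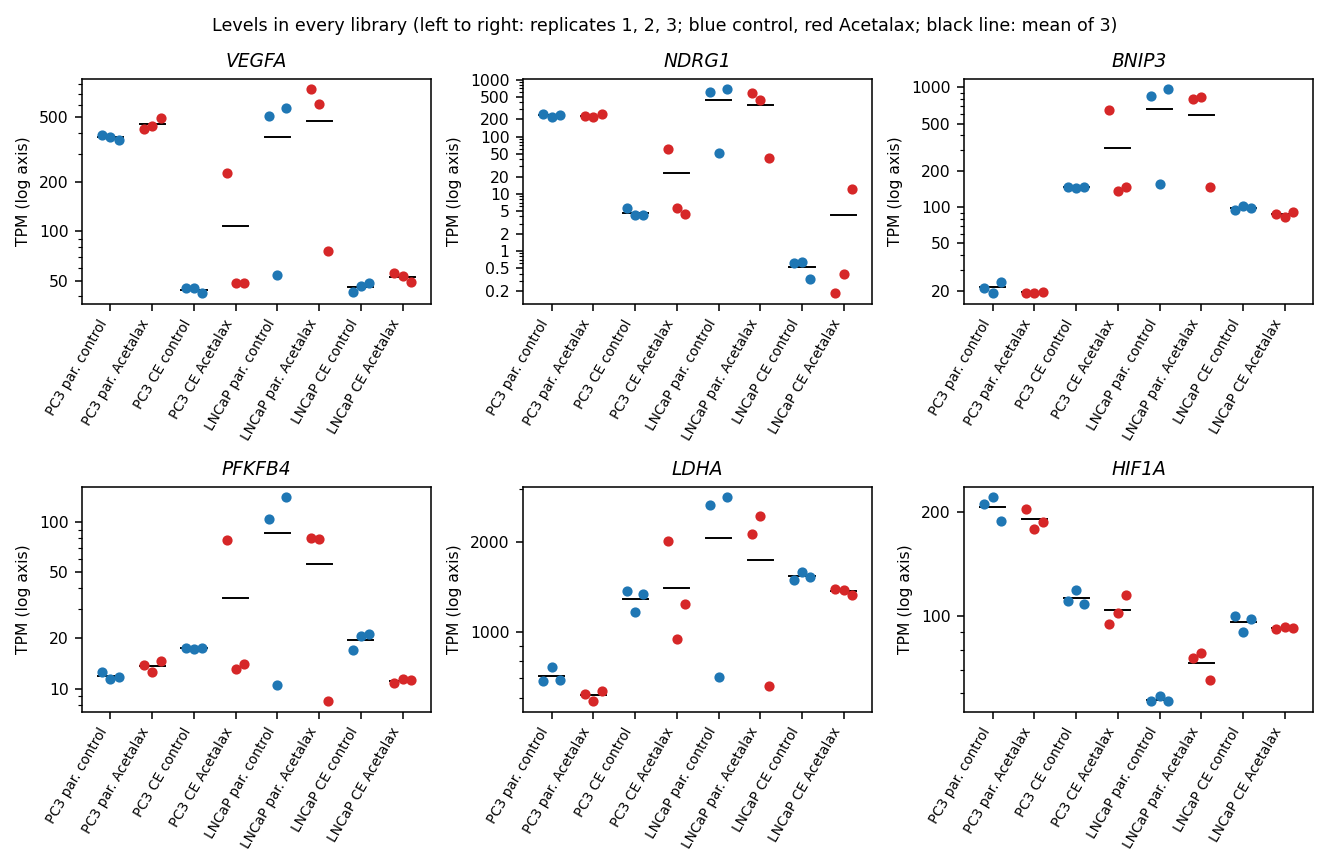
TPM (log axis) of VEGFA, NDRG1, BNIP3, PFKFB4, LDHA and HIF1A in each library of the 8 groups; points are replicates 1, 2 and 3 from left to right, blue for control and red for Acetalax, and the black line is their mean. The 2 low LNCaP parental libraries and the high PC3 CE Acetalax library are visible in every panel but HIF1A, and NDRG1 spans from 0.18 to 681 TPM.

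The collagen-modifying members moved mainly with the 3 libraries. P4HA2, a collagen prolyl hydroxylase subunit, was at 41.9, 9.38 and 56.5 TPM in controls and 34.9, 35.7 and 10.5 TPM after Acetalax in LNCaP parental and 37.1, 40.2 and 41.3 TPM in controls and 211, 40 and 35.5 TPM after Acetalax in PC3 CE. LNCaP CE P4HA2 was 21.9, 26.8 and 24 TPM in controls and 22.7, 19.9 and 22 TPM after Acetalax, and its PC3 parental range was 35 to 40 TPM. P4HA1, the other catalytic subunit, ranged from 27.6 to 225 TPM in LNCaP parental libraries, both ends lying in the same control group. LOX, which cross-links collagen, was at 2.03, 1.64 and 2.01 TPM in controls and 36.7, 2.68 and 1.95 TPM after Acetalax in PC3 CE and at or below 3.28 TPM in every library of the other 3 kinds of cells.

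Of the glucose transporters, SLC2A3 was higher and SLC2A1 lower in CE controls than in parental controls of the same line, with an exception. LNCaP parental control replicate 2 had less SLC2A1 than any LNCaP CE control. SLC2A3 (GLUT3), a high-affinity transporter, was nearly absent from parental cells, at 0.32, 0.42 and 0.29 TPM in controls and 0.18, 0.73 and 0.74 TPM after Acetalax in PC3 and 2.49, 0.72 and 1.84 TPM in controls and 0.79, 0.69 and 0.2 TPM after Acetalax in LNCaP. PC3 CE SLC2A3 was 81.1, 85.9 and 82.7 TPM in controls and 757, 136 and 118 TPM after Acetalax, and LNCaP CE 181, 193 and 194 TPM in controls and 139, 134 and 144 TPM after Acetalax. Treated libraries were above the controls in PC3 CE and below them in LNCaP CE, without overlap. SLC2A1 (GLUT1), the basal transporter, was at 340.1, 353 and 329 TPM in controls and 309, 315 and 299 TPM after Acetalax in PC3 parental and 202, 68.8 and 254 TPM in controls and 208, 292 and 84.4 TPM after Acetalax in LNCaP parental. PC3 CE SLC2A1 was 90.5, 76.2 and 86.8 TPM in controls and 289, 78.4 and 78.7 TPM after Acetalax, and LNCaP CE 79.5, 80.4 and 73.2 TPM in controls and 71.3, 73.4 and 69.2 TPM after Acetalax.

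The PFKFB enzymes make fructose 2,6-bisphosphate, the activator of phosphofructokinase. PFKFB4 was at 105, 10.5 and 142 TPM in controls and 80.5, 79.5 and 8.37 TPM after Acetalax in LNCaP parental cells and 17.5, 17.4 and 17.5 TPM in controls and 78.3, 13 and 14 TPM after Acetalax in PC3 CE. LNCaP CE PFKFB4 was 17.1, 20.7 and 21.3 TPM in controls and 10.8, 11.3 and 11.2 TPM after Acetalax, and PC3 parental 12.6, 11.4 and 11.7 TPM in controls and 13.9, 12.5 and 14.6 TPM after Acetalax. In LNCaP CE every treated library was below every control, and PC3 CE replicates 2 and 3 were below their controls as well. PFKFB3 ranged over 13.3 to 91 TPM in LNCaP parental, 15.4 to 20.1 TPM in PC3 parental and 33.3 to 36.5 TPM in LNCaP CE.

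The 13 glycolytic enzymes made up a larger share of the messenger pool in LNCaP than in PC3 parental cells. Their summed level was 17519, 6408 and 18347 TPM in LNCaP parental controls and 16829, 15892 and 6235 TPM after Acetalax, against 2848 to 3133 TPM in PC3 parental libraries. PC3 CE controls held 7744 to 8191 TPM, PC3 CE Acetalax 12961, 7226 and 7605 TPM, and LNCaP CE libraries 9433 to 9726 TPM. The low LNCaP libraries thus held less glycolytic RNA than any LNCaP CE library, and every CE library held more than any PC3 parental library.

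LDHA, which turns pyruvate into lactate, was at 2645, 709 and 2816 TPM in controls and 2129, 2429 and 663 TPM after Acetalax in LNCaP parental and 689, 766 and 690 TPM in controls and 623, 587 and 635 TPM after Acetalax in PC3 parental. PC3 CE LDHA was 1374, 1163 and 1335 TPM in controls and 2012, 945 and 1236 TPM after Acetalax, and LNCaP CE 1492, 1581 and 1528 TPM in controls and 1395, 1385 and 1324 TPM after Acetalax. ENO2, the neuronal enolase, was at 174, 16.1 and 198 TPM in controls and 218, 165 and 17.5 TPM after Acetalax in LNCaP parental and 32.8, 31.1 and 30.7 TPM in controls and 278, 36.7 and 29.1 TPM after Acetalax in PC3 CE. It ranged over 34.5 to 38.6 TPM in PC3 parental and 20.6 to 26.6 TPM in LNCaP CE, whereas the housekeeping enolase ENO1 ranged over 452 to 526 TPM and 2630.3 to 2749.7 TPM.

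GPI, the glucose-6-phosphate isomerase, went against its neighbours in 1 place. It was low in both low LNCaP parental libraries, at 1231, 449 and 1344 TPM in controls and 1204, 1049 and 419.7 TPM after Acetalax, but PC3 CE Acetalax replicate 1 was the lowest and not the highest of its group, at 217, 191 and 206 TPM in controls and 105, 176 and 183 TPM after Acetalax. PC3 parental GPI was 156, 131 and 155 TPM in controls and 133, 139 and 128 TPM after Acetalax, and LNCaP CE 270, 273 and 281 TPM in controls and 266, 257 and 245 TPM after Acetalax. PGAM1, a phosphoglycerate mutase, hardly followed the PC3 CE library either, at 932, 940 and 929 TPM in controls and 901, 862 and 896 TPM after Acetalax. PC3 parental PGAM1 was 160.5, 148 and 166 TPM in controls and 202, 201 and 209 TPM after Acetalax. LNCaP parental PGAM1 was 893, 578 and 918 TPM in controls and 867, 886 and 584 TPM after Acetalax, and LNCaP CE 1158, 1148 and 1139 TPM in controls and 1181, 1202 and 1203 TPM after Acetalax. Treated libraries were above all controls in PC3 parental and LNCaP CE cells and below them in PC3 CE.

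Among the remaining enzymes, PGK1 ranged over 362 to 1922 TPM in LNCaP parental and 221 to 264 TPM in PC3 parental libraries. ALDOA, the main aldolase, was at 644, 524 and 674 TPM in PC3 parental controls and ranged over 1270.1 to 4337 TPM in LNCaP parental. PFKL, the liver-type phosphofructokinase, was at 98.9, 76 and 103 TPM in controls and 112, 111 and 109.5 TPM after Acetalax in PC3 parental, where every treated library exceeded every control. HK1, the housekeeping hexokinase, was lowest in LNCaP CE at 14.8 to 18.4 TPM and ranged over 78.5 to 101 TPM in PC3 parental. HK2, the inducible hexokinase, was at 29.6, 28.1 and 28.9 TPM in controls and 21.8, 21 and 21.8 TPM after Acetalax in PC3 parental, 167, 28 and 24.2 TPM in PC3 CE Acetalax and 84.2, 22.1 and 105 TPM in LNCaP parental controls. ALDOC, TPI1 and PFKP had LNCaP parental ranges of 48.5 to 257 TPM, 1070 to 1816 TPM and 50.6 to 229 TPM. Several of these enzymes have near-identical processed copies in the genome, between which the authors' counting may have divided reads.

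The first question of the design is how 4 h of Acetalax changed parental cells. In PC3 parental cells 2 of the hypoxia and glycolysis genes passed the test: PGAM1 rose (log2 fold change 0.38, SE 0.07, adjusted p 0.0058) and ARNT fell (log2 fold change -0.35, SE 0.07, adjusted p 0.0083). The count of 2 of 40 stands against 7.80% of all 20049 genes tested (3.49% higher, 4.31% lower), and the median log2 fold change of the members was 0.02 against 0.00 for all genes. KDM3A (-0.70, SE 0.41), HK2 (-0.41, SE 0.56), PFKL (0.35, SE 0.18) and VEGFA (0.22, SE 0.47) had log2 fold changes with wide errors and adjusted p-values of 0.38, 0.78, 0.33 and 0.89. Those errors draw on the spread of all 12 PC3 libraries, which includes PC3 CE Acetalax replicate 1. Fitted on the 6 PC3 parental libraries alone, 14 members passed, 8 higher and 6 lower, against 27.0% of all genes.

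In LNCaP parental cells HIF1A rose (log2 fold change 0.42, SE 0.07, adjusted p 0.0045), and it was the 1 member of 40 past the threshold, against 8.45% of all 19393 genes (4.04% higher, 4.41% lower). EGLN3 had the largest log2 fold change, -1.38 (SE 0.55) with an adjusted p of 0.18, followed by SLC2A3 at -1.01 (SE 0.39) and KDM3A at 0.74 (SE 0.65). The median over members was -0.05 and over all genes -0.01. The HIF1A response was higher in LNCaP than in PC3 parental cells, where its log2 fold change was -0.12 and did not pass, by the direct test of that difference (log2 difference 0.55, SE 0.11, adjusted p 0.0031), and was the only member called, against 5.05% of 21955 genes (3.15% higher, 1.9% lower). A fit of log2(TPM + 0.1) with limma lost this call, and a fit on the 6 LNCaP parental libraries alone called 0 members within LNCaP.

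The second question is how the CE cells responded to the same dose. In PC3 CE, CA9 (log2 fold change 4.30, SE 1.19, adjusted p 0.048), SLC2A3 (log2 fold change 2.13, SE 0.56, adjusted p 0.04) and ADM (log2 fold change 2.00, SE 0.56, adjusted p 0.049) rose, and 3 of 40 members stand against 8.15% of all genes (4.67% higher, 3.47% lower). The median log2 fold change of the members was 0.92 against 0.01 for all genes. Without replicate 1 the median was 0.00 and the count was 7, with 5 higher and 2 lower, against 16.4% of all genes. CA9 lost its call at 0.76 (SE 0.26), and SLC2A3 and ADM stood at 0.73 (SE 0.07) and 0.61 (SE 0.09). Replicate 1 was left out because of its values in these genes, so p-values of that fit are too small and are not given. The count also became 22 without PC3 CE Acetalax replicate 3, 17 without replicate 2 and 0 without any single PC3 CE control. It was also 0 with limma, with the replicate number as a block, and with the 6 PC3 CE libraries fitted alone. For these fits the share of all genes is not given, so the counts show only how the calls depend on the fit.

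In LNCaP CE, 0 of 40 members passed the edgeR test, against 7.40% of all genes (3.34% higher, 4.06% lower). Of the members, 2 had an unadjusted p under 0.05, against 20.4% of all genes. DESeq2 and limma called 0 members as well. For these 2 tools the share of all genes is not given, so their counts show only how the calls depend on the fit. Among the largest log2 fold changes were 1.60 (SE 0.69) for EPAS1, from under 0.3 TPM, -1.40 (SE 0.49) for ADM and -0.94 (SE 0.48) for HILPDA; EGLN3 was near the floor, at 8, 13 and 6 counts in controls and 5, 5 and 2 after Acetalax. The median was 0.02 over members and 0.00 over all genes. The errors again draw on the LNCaP parental libraries. With the 6 LNCaP CE libraries alone 21 members passed, 12 higher and 9 lower, when 49.4% of all genes did.

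Leaving out the 3 libraries gives a second reading of the Acetalax responses. They were left out because of their values in these genes, so the p-values of the members in that fit are too small, and the counts are set beside those of all genes only as a description. Members called were 16 in PC3 parental (8 higher, 8 lower; 27.3% of all genes), 16 in LNCaP parental (5 and 11; 26.6%), 7 in PC3 CE (16.4%) and 17 in LNCaP CE (9 and 8; 34.1%). The sign of a fold change here follows edgeR's TMM scaling of counts, and in LNCaP CE it departed from TPM for some enzymes: LDHA was at 0.16 on the log2 scale although its treated TPM values were below the controls.

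VEGFA was higher after Acetalax in all 4 kinds of cells in this reading, which is a description without p-values. Its log2 fold changes were 0.22 (SE 0.06) in PC3 parental, 0.32 (SE 0.06) in LNCaP parental, 0.32 (SE 0.07) in PC3 CE and 0.41 (SE 0.05) in LNCaP CE. KDM3A was lower in PC3 parental at -0.70 (SE 0.06) and higher in the others, at 0.70, 0.43 and 0.45. PFKFB4 took the reverse course, 0.28 in PC3 parental and -0.70, -0.42 and -0.71 in LNCaP parental, PC3 CE and LNCaP CE. The known direct HIF feedback gene EGLN3 was lower in LNCaP parental (-1.38). HILPDA was lower in PC3 CE (-0.53) and LNCaP CE (-0.93). ADM and SLC2A3 were higher in PC3 CE (0.61 and 0.73) and lower in LNCaP CE (-1.38 and -0.24). HIF1A was higher in LNCaP parental at 0.51 (SE 0.05).

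**Figure D4:**
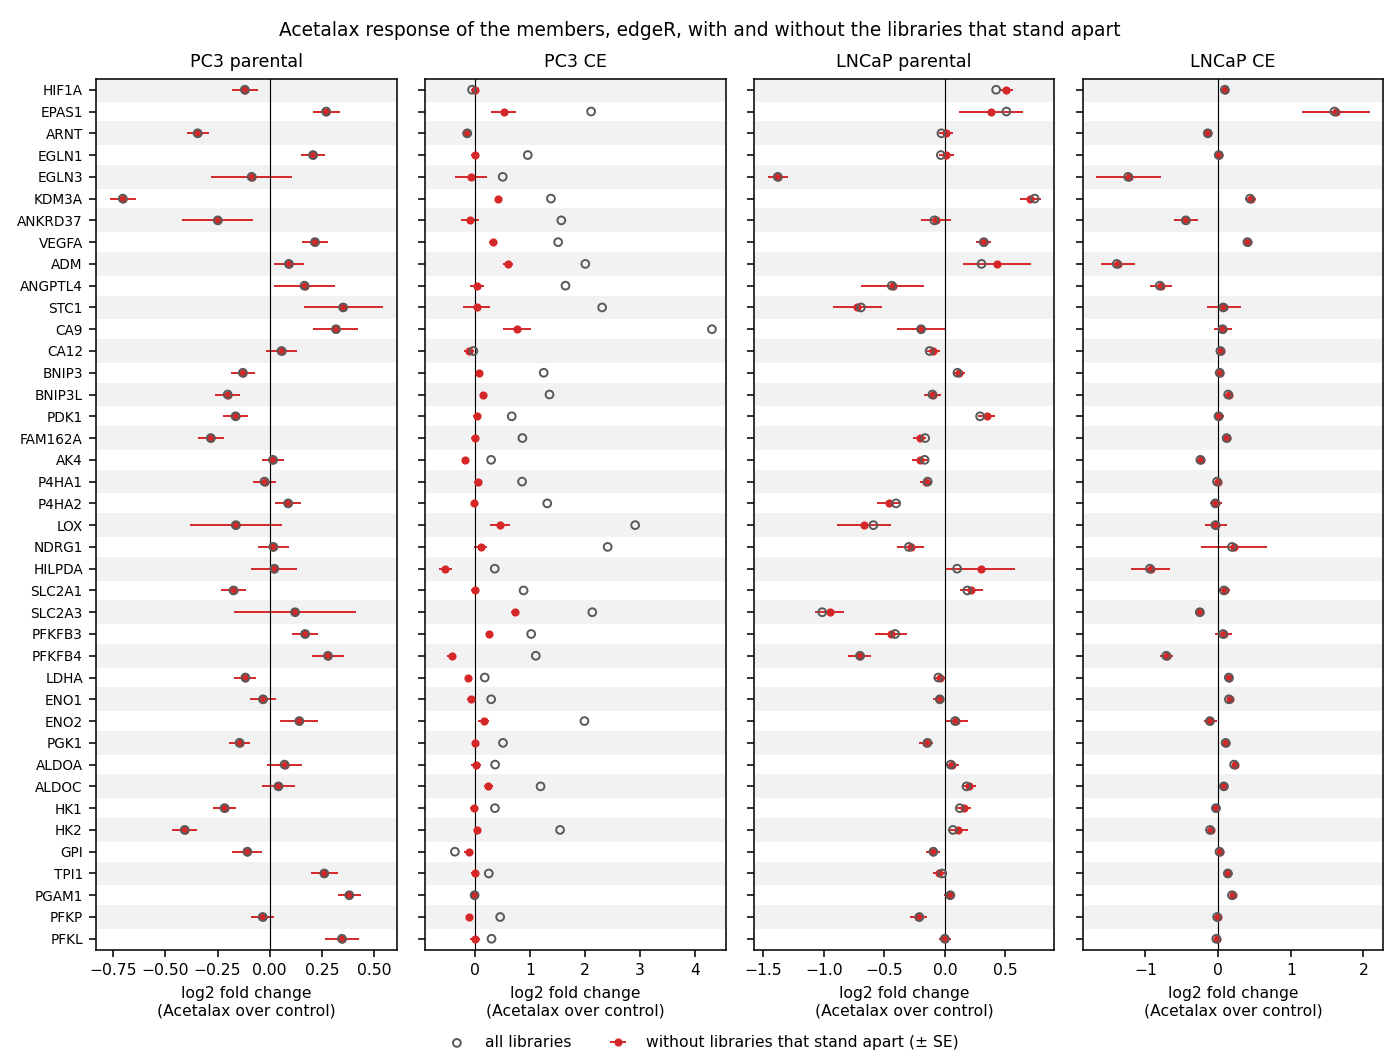
log2 fold change of Acetalax over control for the 40 members in the 4 kinds of cells, from edgeR; open circles are all libraries and red points with SE bars leave out the libraries that stand apart, and each panel has its own horizontal scale. In PC3 CE most open circles lie to the right of the red points, and in LNCaP CE the circles and points coincide.

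Other genes of the pathway, from lists that may have been shaped by earlier results, were counted in the same fits of all libraries. The counts stand against 7.80%, 8.45%, 8.15% and 7.40% of all genes called in PC3 parental, LNCaP parental, PC3 CE and LNCaP CE. Of 8 tested HIF pathway regulators, Acetalax changed 0 up and 1 down in PC3 parental (EP300, a HIF coactivator, log2 fold change -0.79), 2 up and 2 down in LNCaP parental (CITED2, which competes with HIF for its coactivators, -1.65, HIF1AN -0.51, EP300 0.95 and CREBBP 0.87), 3 up in PC3 CE (CITED2 0.99, CREBBP 0.68, EP300 0.51) and 2 up and 1 down in LNCaP CE (EP300 0.67, CREBBP 0.61, HIF1AN -0.50). Of 24 other hypoxia targets, 0 passed in either parental line, 2 rose in PC3 CE (the larger BHLHE40, 3.29) and 1 fell in LNCaP CE (PPP1R3C -0.82). EP300 fell in PC3 parental and rose in the other 3 kinds of cells, and its response differed between the parental lines by 1.75 on the log2 scale in the direct test. TXNIP, a glucose-responsive inhibitor of glucose uptake, fell in PC3 parental (log2 fold change -1.21, adjusted p 0.0096), from 477, 472 and 440.1 to 196, 192 and 188 TPM, and stood at 50.9, 42.5 and 54.9 and 6.28, 4.54 and 31 TPM in LNCaP parental controls and treated libraries, where it did not pass.

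The third question is how CE cells differed from their parents without drug. In PC3, 22 of 40 members differed, 12 higher and 10 lower in CE, when 77.5% of all genes did (38.5% higher, 39% lower). SLC2A3 (log2 fold change 8.98, SE 0.84, adjusted p 1.2e-06), BNIP3 (2.70) and PGAM1 (2.49) had the largest higher values in CE, and EPAS1 (log2 fold change -8.75, SE 0.72, adjusted p 3.9e-07), NDRG1 (-5.76), CA9 (-5.09) and VEGFA (-3.35) the largest lower ones. EGLN3 (-2.40), CA12 (-2.29) and ADM (-2.25) were lower too. By role, 7 of 13 glycolytic enzymes were higher and 1 lower, both carbonic anhydrases were lower, and HIF1A was lower (-0.90) while ARNT was higher (1.64). The members' median was 0.47 against -0.01 for all genes, and the count rose to 38 (84.4% of all genes) without PC3 CE Acetalax replicate 1, which enters this comparison only through the shared spread.

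In LNCaP, 25 of 40 members differed, 8 higher and 17 lower in CE, when 75.3% of all genes did (36% higher, 39.3% lower). NDRG1 (log2 fold change -10.61, SE 1.38, adjusted p 3.4e-05), EGLN3 (-7.96), EPAS1 (-4.58), ANKRD37 (-3.12), VEGFA (-3.04), STC1 (-2.87) and BNIP3 (-2.69) were lower. SLC2A3 (log2 fold change 7.31, SE 0.44, adjusted p 4.9e-08), ANGPTL4 (3.17) and CA9 (2.76) were higher. All 5 mitochondrial members were lower, as were 5 of 13 glycolytic enzymes, with 1 higher, and HIF1A (0.86) and ARNT (0.80) were both higher. The median was -0.94 against -0.06 for all genes. Without the 2 low LNCaP parental libraries 39 members passed (84.8% of all genes) and the median was -1.25.

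The difference between the lines was tested directly. For 25 of 40 members the CE change differed between LNCaP and PC3, 5 more positive and 20 more negative in LNCaP, when 56.8% of 21955 genes did (25.7% more positive, 31.2% more negative). The most negative differences on the log2 scale were EGLN3 (-5.59, SE 0.87), BNIP3 (-5.42, SE 0.89), NDRG1 (-4.88, SE 1.45), ANKRD37 (-3.97, SE 1.07) and BNIP3L (-3.08, SE 0.85). The most positive were CA9 (7.82, SE 1.59), EPAS1 (4.14, SE 1.62) and ADM (3.49, SE 0.77). EPAS1 was already low in LNCaP parental controls and near the floor in LNCaP CE, which limits its fall in that line. By role, 10 of 13 glycolytic enzymes and all 5 mitochondrial members differed, all toward LNCaP negative. HIF1A was lower in PC3 CE and higher in LNCaP CE than in the parents, with a difference of 1.73 (SE 0.11) and an adjusted p of 1.9e-11. VEGFA, lower in CE cells of both lines, had a difference of 0.28 (SE 0.95), and -0.24 without the 3 libraries. The median over members was -1.56 against -0.13 for all genes.

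**Figure D5:**
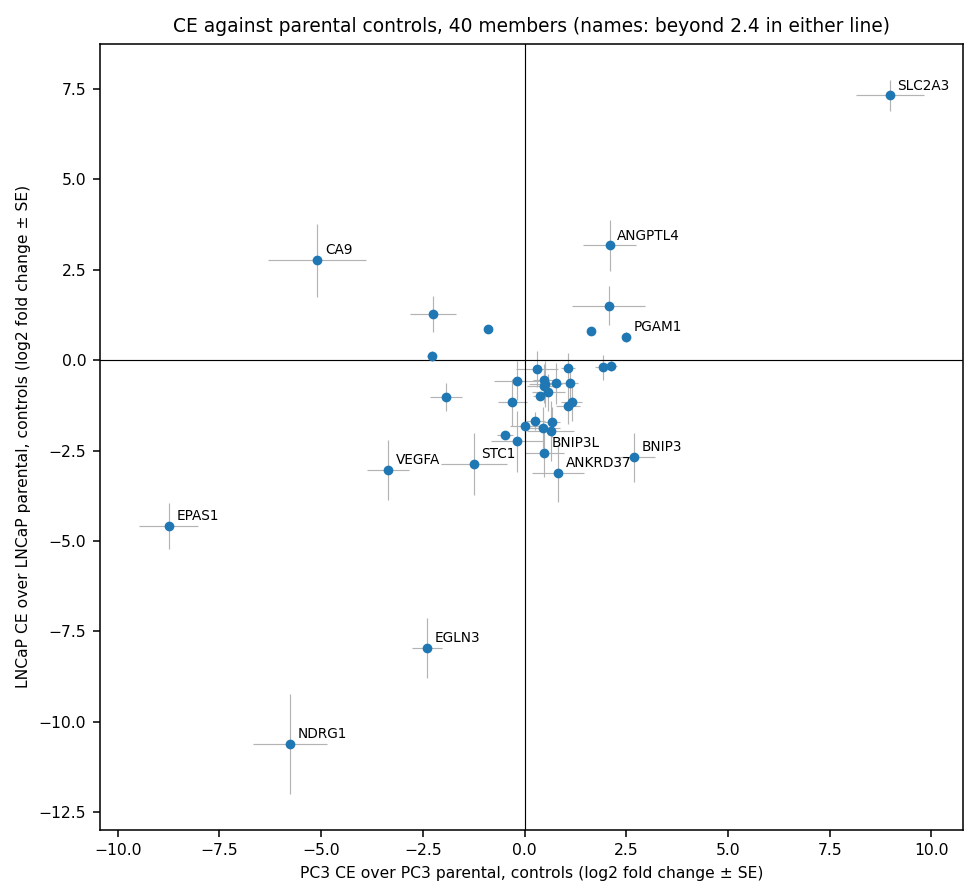
log2 fold change ± SE of CE over parental controls in PC3 (horizontal) and LNCaP (vertical) for the 40 members, with names where either absolute value is beyond 2.4. SLC2A3 lies far up in both lines and NDRG1, EPAS1, EGLN3 and VEGFA far down, while BNIP3 lies up in PC3 and down in LNCaP and CA9 the reverse.

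Among other genes of the pathway, to be read against the 77.5% and 75.3% of all genes called in PC3 and LNCaP, CE differed from parental in 15 of 24 other hypoxia targets in PC3 (8 higher, 7 lower; largest PPP1R3C 10.08, RORA 5.02 and RAB20 -3.70) and in 13 of 24 in LNCaP (5 higher, 8 lower; among them PPP1R3C 6.39 and LOXL2 5.93). Other glycolysis and lactate genes differed in 12 of 13 in PC3 (10 higher; ENO3 4.18, PFKFB2 -3.33, PDK4 -3.21) and in 8 of 14 in LNCaP (3 higher; PFKFB1 -2.35, PDK3 -2.08, LDHB 1.35). HIF pathway regulators differed in 6 of 8 in PC3 and 8 of 8 in LNCaP, and CITED2 went opposite ways, 4.78 in PC3 and -3.95 in LNCaP. The epithelial markers were lower in CE cells in all 4 genes of both lines, beside every one of these differences, and their part in the result was not tested.

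The last comparison sets the parental lines against each other. Controls of LNCaP held more of 26 members and less of 4 than controls of PC3, when 70.3% of all genes differed (35.5% higher, 34.7% lower). BNIP3 (log2 fold change 4.96, SE 0.70, adjusted p 2.6e-06), ANKRD37 (4.33), EGLN3 (4.04), STC1 (3.57), GPI (3.07), PFKFB4 (3.05) and SLC2A3 (3.03) were higher in LNCaP. EPAS1 (log2 fold change -6.72, SE 0.60, adjusted p 3.2e-09), ADM (-5.53) and CA9 (-4.01), together with HIF1A (-1.84), were lower. Of the 13 glycolytic enzymes 11 were higher and 0 lower, and all 5 mitochondrial members and both PFKFB genes were higher. VEGFA (0.08, SE 0.67) and NDRG1 (0.86, SE 0.85) did not pass, with adjusted p-values of 0.94 and 0.38. The median over members was 1.72 against 0.00 for all genes, and 2.10 without the 3 libraries, when all 40 passed (76.6% of all genes).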

How the data were processed

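RNA from 24 libraries of PC3 and LNCaP cells was sequenced as poly(A)-selected, directional, paired reads of 100 bases, per the labels' protocols. The submitters' processing notes name FastQC, STAR 2.7, RSEM and the builds hg38 and GRCh38; for the annotation release and the strand setting, the sources read here give nothing. The authors deposited RSEM expected counts and TPM for 60660 features. Of the deposited count values 10.2% were not whole, and they were rounded, which changed no library total by more than 9.6e-05%. Each of these 2 files also held 1 column of no listed sample, which was not used.

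The counts were tested with edgeR 4.0.16 in R 4.3.3 (TMM scaling, filterByExpr with a minimum count of 10, quasi-likelihood fit, Benjamini-Hochberg adjustment over all genes, threshold 0.05). PC3 comparisons used all 12 PC3 libraries (20049 genes), LNCaP comparisons all 12 LNCaP libraries (19393 genes), and comparisons across lines all 24 (21955 genes). Totals of 40160832 to 57728014 counts limit only rarely expressed members; no 2 replicates agreed within sampling noise (chi-square per degree of freedom 3.57 to 292). Because no label ties a replicate to its own culture, the p-values cover the spread among these libraries only, and that spread may be technical. The spread within a group was the highest over the lowest TPM + 1. The tests were tried on simulated data.

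Some genes of the lists and 1 promoter stretch are not reported here. The members and all gene lists were chosen with earlier results of these data known. Values in every library are given for VEGFA, NDRG1 and the HIF subunits, for up to 10 called members per comparison with the largest change, and for up to 5 per group with the widest spread. For other pathway genes, at most 3 called genes per list and comparison are named, and HIF1AN beside them to complete a count. Alternatives were DESeq2 1.42.0, limma 3.58.1 on log2(TPM + 1) and log2(TPM + 0.1), no count filter, a replicate block, only the compared groups, each replicate left out, and, added after seeing the data, leaving out the 3 libraries that stand apart. Promoter windows came from RefSeq, and gene positions and exons from GENCODE 29, both on GRCh38.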

Additional observations from a re-analysis of the deposited data

Results flagged for a closer look

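The change from parental to CE cells differed between the lines in a direct test for 25 members. The difference, LNCaP less PC3 on the log2 scale, was negative for the mitochondrial genes BNIP3 (-5.42), BNIP3L (-3.08), PDK1 (-2.36), AK4 (-1.99) and FAM162A (-1.86). It was also negative for the enzymes GPI (-2.43), ALDOC (-2.35), PGK1 (-2.34), TPI1 (-2.30), ENO1 (-2.16), PGAM1 (-1.87), ALDOA (-1.79), HK1 (-1.61), PFKL (-1.42) and LDHA (-1.34), for the regulator PFKFB4 (-2.63), and for EGLN3 (-5.59), NDRG1 (-4.88), ANKRD37 (-3.97) and ARNT (-0.87). It was positive for CA9 (7.82), EPAS1 (4.14), ADM (3.49), CA12 (2.37) and HIF1A (1.73). The EPAS1 value is limited by its low level in LNCaP controls. The Acetalax response of HIF1A differed between the parental lines by 0.55, LNCaP less PC3.

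In 2 further pairs of groups some members had every treated library above the controls in 1 group and below them in the other. This difference was not tested. The share of all genes that did so was not counted, so the 5 values below only describe these members. The response in PC3 CE less that in PC3 parental was 2.08 for KDM3A and -0.38 for PGAM1 on the log2 scale. The response in LNCaP CE less that in PC3 CE was -3.40 for ADM, -2.38 for SLC2A3 and 0.19 for PGAM1. PC3 CE Acetalax replicate 1 enters each of these 5 values.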

How the results depend on the processing

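Without the libraries that stand apart, the members called after Acetalax became 16 in PC3 parental (27.3% of all genes) and 16 in LNCaP parental (26.6%). They became 7 in PC3 CE (16.4%) and 17 in LNCaP CE (34.1%) after Acetalax. The CE comparisons gave 38 in PC3 (84.4%), 39 in LNCaP (84.8%) and 39 for the CE difference between lines (66%). For the response difference between parental lines 17 members were called (19.3%). With only the compared groups fitted they were 14, 0, 0 and 21 for the 4 Acetalax comparisons in that order, and 39 for CE in PC3; the cause was not tested. No count filter gave 1 in PC3 parental and 9 in PC3 CE. In PC3 CE, DESeq2 gave 11, limma 0 at either pseudocount and the replicate block 0, against 3; the block moved no other count over 1.5 times. The replicate numbers did not pair the samples: no comparison had all 3 correlations over 0.1, and those of LNCaP parental were 0.357, -0.436 and -0.536. limma on log2(TPM + 0.1) gave 0 for the response difference between parental lines. Where a count in this section has no share of all genes beside it, it shows only how the calls depend on the fit.

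Leaving out 1 replicate at a time, of the groups compared only, gave 1 to 2 members in PC3 parental, 1 to 3 in LNCaP parental, 0 to 22 in PC3 CE, 0 in each run in LNCaP CE, 21 in each run for CE in PC3, 19 to 33 for CE in LNCaP, 27 to 33 between parental lines, 23 to 30 for the CE difference and 1 to 2 for the response difference. For VEGFA the CE difference between lines was 0.28 and turned to -0.24 without the 3 libraries. That fit called the difference, but the 3 libraries were left out because of their values in these genes. Among single genes 1137 values kept their side of the threshold, 51 lost it, 30 gained it and 1 reversed. The higher share of all calls moved, with limma on log2(TPM + 1), from 47.8% to 28.6% in LNCaP parental, 57.4% to 31.4% in PC3 CE, 45.1% to 16% in LNCaP CE and 62.4% to 35.7% for the response difference. NDRG1 fell out of the 4-fold spread in LNCaP CE Acetalax, leaving 0, on TMM-scaled CPM + 1 and at a mean TPM of at least 10. The promoter share was 45.6% for ACGTG alone against 75.4%.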
